A study of Rattus norvegicus with 6 samples.

Results

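The SOCS family comprises 8 genes, Socs1 to Socs7 and Cish, which encode suppressors of cytokine signaling. The 8 members were chosen by name among the 40154 genes counted in rat atrial fibroblasts, and their expression was compared between cells transfected with si-NC, a control siRNA, and cells transfected with si-GPD1L, an siRNA against glycerol-3-phosphate dehydrogenase 1-like. Each group held 3 libraries of polyA-selected RNA collected 24 h after transfection. The fibroblasts of both groups came from Sprague-Dawley rats aged 1 to 3 days and were separated from atrial myocytes by a preplating interval of 1.5 h. They were grown in medium with fetal bovine serum, and no untransfected cells were included. The labels do not say whether the 3 si-GPD1L libraries used the same siRNA or different ones. Nor do they say whether the libraries of a group came from separate cultures, so the p-values measure the spread between these libraries, which may be technical.

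Cytokines such as interferons, the interleukin-6 family and growth hormone act through receptors that carry Janus kinases (JAKs), and the JAKs phosphorylate STAT transcription factors. STATs then switch on target genes, and several SOCS genes are among these targets, so that their products form a negative feedback on the receptor. Every SOCS protein holds an SH2 domain, which binds phosphorylated tyrosines, and a SOCS box, which recruits a Cullin-5 ubiquitin ligase. SOCS1 and SOCS3 can also block the kinase activity of JAKs directly, while CISH and SOCS2 are known for restraining growth hormone and STAT5 signaling. SOCS4 and SOCS5 have been linked to the EGF receptor, and SOCS6 and SOCS7 to insulin signaling.

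The promoters of Socs1 and Cish are shown because they hold the letters that STAT and interferon regulatory factors are known to bind. RefSeq sequences on the GRCr8 build, from 250 bases before to 50 bases after the start of the gene, were at hand for 5 members (Socs1, Socs3, Socs4, Socs6 and Cish). They were searched on both strands for the interferon-gamma activated sequence (GAS) TTCNNNGAA and for the core of the interferon-stimulated response element (ISRE), a pair of GAAA blocks set 2 bases apart. In the windows below, all on the plus strand, capitals mark the matches.
Socs1 GAS, chr10:5389368-5389396: agaagtcccaTTCAGGGAAggtgcgaggc
Socs1 ISRE core, chr10:5389460-5389489: cttgccgGAAAGAGAAACCGAAAgcggcgg
Cish GAS, distal pair, chr8:116850723-116850752: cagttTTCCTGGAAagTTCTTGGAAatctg
Cish GAS, proximal pair, chr8:116850831-116850860: ggTTCTAGGAAgatgcggcTTCCGGGAAgg

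The GAS letters occurred in 2 of the 5 promoters, once in Socs1 at 196 bases before the start and 4 times in Cish between 241 and 119 bases before it. Of all 33469 rat promoters of 300 bases, 8.87% held such a match. The ISRE core occurred only in Socs1 among the 5, with 2 overlapping matches that began 107 and 101 bases before the start, and 3.92% of all promoters held it. The GAS letters with a spacer of 4 bases were found in none of the 5 and in 7.28% of all promoters. These matches describe letters within the windows and do not show that a factor was bound.

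The library totals ran from 16892255 to 20149732 counts. Within each group the chi-square per degree of freedom between any 2 libraries was 4.12 or more, above counting error, and none was merged. Gpd1l, the target of the siRNA, had 265, 314 and 321 raw counts in si-NC replicates 1, 2 and 3 and 202, 229 and 303 in si-GPD1L. Its log2 fold change was -0.31 (SE 0.15; edgeR quasi-likelihood adjusted p = 0.234), and the count of si-GPD1L replicate 3 lay within the si-NC range. With that library left out the log2 fold change was -0.50 (edgeR adjusted p = 0.0733), and with si-GPD1L replicate 2 left out it was -0.21 (0.579). All directions given here are therefore those of the libraries labelled si-GPD1L. Of the cell type markers, the fibroblast set summed to 33859 to 43691 TPM (counts per length, scaled to the same total in each library) in si-NC and 41109 to 44260 TPM in si-GPD1L, a sum carried mostly by the collagens Col1a1 and Col3a1. Both of the 2 called of these 10 markers fell, Dcn by 0.66 and Lum by 0.77 on the log2 scale, and the list's median log2 fold change was -0.12. The endothelial markers were higher, with 39.3 to 50.4 TPM in si-NC and 63.5 to 68.5 TPM in si-GPD1L and 4 of 9 tested markers called. The leukocyte markers summed to 221 to 255 TPM and 209.8 to 304.6 TPM with none of 10 called by the same test (1 with an unadjusted p under 0.05, 1 called by the exact test and 0 by DESeq2), and the T cell and B cell markers Cd3e and Cd79a had at most 3 counts in any library. The cardiomyocyte markers summed to 2666 to 2783 TPM in si-NC and 2445 to 2617 TPM in si-GPD1L, with none of 10 called by edgeR's quasi-likelihood test (5 with an unadjusted p under 0.05, 0 called by the exact test and 1 by DESeq2). The smooth muscle and pericyte markers summed to 655 to 759.7 TPM and 733 to 793 TPM, with 3 of 8 called. Of these, Cspg4 and Mcam were higher (log2 fold changes 0.80 and 0.27) and Des was lower (-0.35). Over all genes tested, 6.36% were called by the quasi-likelihood test and 22.4% had an unadjusted p under 0.05. The part of these other cell types in the SOCS results was not tested.

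Of the 8 SOCS members, 1 was called. Socs1 was 3.61-fold higher in the libraries labelled si-GPD1L, while Socs2 and Socs3 were each about 20% lower without passing the test, and the other members lay within about 7% of si-NC. The count of 1 called member is to be read against a background of 6.36% of all genes called in this comparison at an adjusted p under 0.05 (945 of 14852 genes tested, with 4.03% higher and 2.33% lower). A log2 fold change beyond 1 as well was met by Socs1 and by 1.62% of all genes, 1.48% higher and 0.135% lower. An unadjusted p under 0.05 was reached by 3 members, Socs1, Socs2 and Socs3, and by 22.4% of all genes. The 945 became 1531, 550 and 1451 genes with si-NC replicates 1, 2 and 3 left out in turn, and 366, 361 and 591 with si-GPD1L replicates 1, 2 and 3 left out. The median log2 fold change of the 8 members was 0.0026, next to -0.0049 over all genes tested. In bulk RNA, a change in the number of cells that express a gene and a change in its RNA per cell cannot be told apart.

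Socs1 (NCBI gene 252971) encodes the member known for inhibiting JAK1, JAK2 and TYK2 below the interferon receptors. The gene table places it on chromosome 10, bases 4956795 to 4958472, plus strand (build rn6 by the submitters' processing notes, as for the other members). Its raw counts were 12, 19 and 15 in si-NC replicates 1, 2 and 3 and 50, 68 and 52 in si-GPD1L replicates 1, 2 and 3. Every si-GPD1L library was above every si-NC library, and the lowest of the former held over 2 times the count of the highest of the latter. Its mean normalized count, a count divided by the effective library size and multiplied by the average one, rose from 15.5 ± 4.19 to 56.1 ± 5.13 (SD over the 3 libraries of si-NC and of si-GPD1L). The log2 fold change was 1.85 (SE 0.27, 95% confidence interval 1.27 to 2.44; edgeR quasi-likelihood adjusted p = 0.0012). By p-value Socs1 ranked 192 of the genes tested, and an exact two-sided permutation test gave p = 0.10, the smallest that 3 libraries against 3 allow.

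Socs1 was also the member with the fewest counts. Its coefficient of variation between si-NC libraries was 27.0%, and counting error alone gives 25.4% at that depth. In si-GPD1L the corresponding values were 9.15% and 13.4%. The spread of Socs1 was thus close to what the depth sets, and its fold change has the widest interval of the family. A ratio of 2 genes within a library does not depend on how libraries are scaled. For every 100 reads on Socs3 there were 1.88, 2.72 and 2.39 on Socs1 under si-NC and 11.5, 11.1 and 9.54 under si-GPD1L. Socs3 was itself lower in si-GPD1L (log2 fold change -0.33, not called), which makes this rise larger than that of Socs1 alone.

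**Figure D1:**
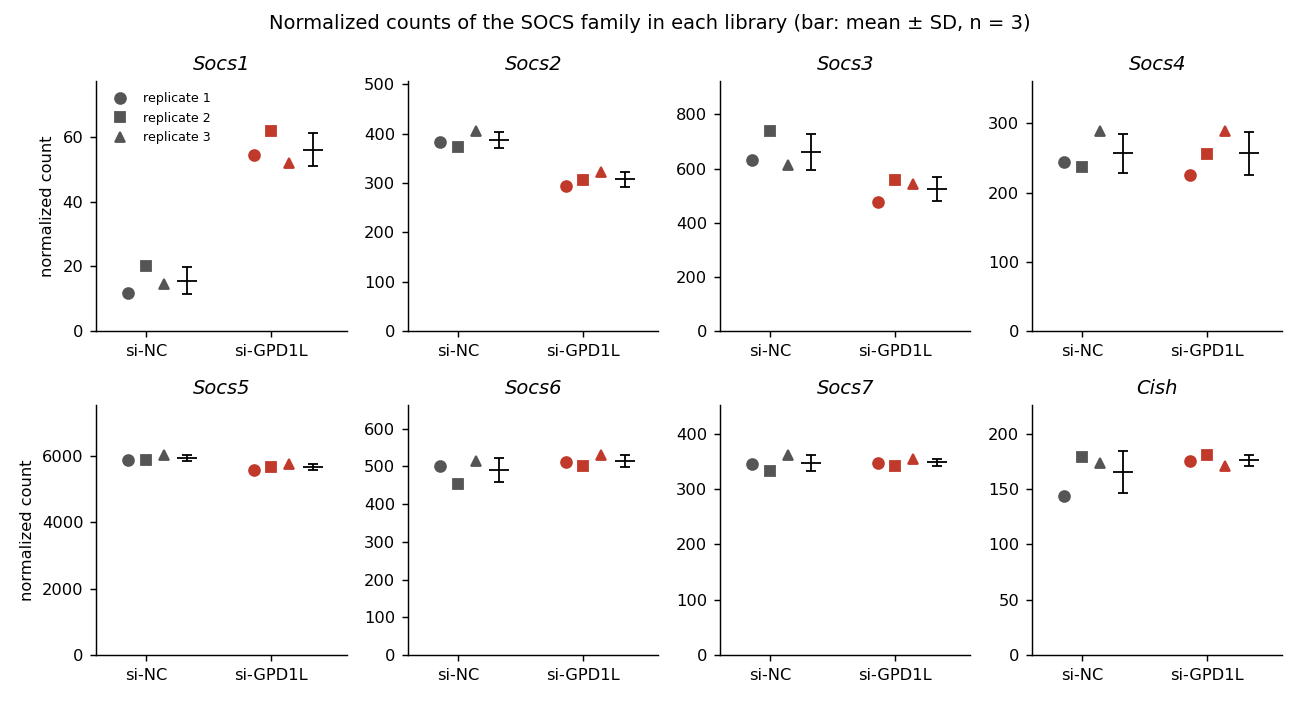
Normalized counts of the 8 SOCS members (y axis, from 0) in the 3 si-NC (grey) and 3 si-GPD1L (red) libraries; marker shapes are replicate numbers and black bars the mean ± SD. Socs1 is separated upward, from 15.5 to 56.1 on average, Socs2 and Socs3 are separated downward, and the groups nearly coincide for Socs4, Socs6, Socs7 and Cish.

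Socs2 (NCBI gene 84607, chromosome 7, 36495496 to 36500878, minus strand) encodes a regulator of growth hormone receptor signaling. Its normalized counts were 384, 373 and 405 in si-NC and 293, 305 and 322 in si-GPD1L. The groups did not overlap, and the difference was larger than the spread within either group. The log2 fold change was -0.34 (SE 0.092, 95% confidence interval -0.54 to -0.13), and the edgeR quasi-likelihood adjusted p of 0.0514 missed the threshold of 0.05. Socs3 (NCBI gene 89829, chromosome 10, 106973863 to 106976969, minus strand) encodes the main inhibitor of the shared interleukin-6 receptor chain gp130. It had normalized counts of 633, 738.5 and 612 in si-NC and 475, 559 and 544 in si-GPD1L. Again no si-GPD1L library reached the lowest si-NC library, although si-NC replicate 2 stood above the other two. The log2 fold change was -0.33 (SE 0.099, 95% confidence interval -0.54 to -0.11, adjusted p = 0.0698 from the same test).

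Socs2 and Socs3 were near the threshold, and single libraries moved them across it. With si-NC replicate 1 left out, edgeR's adjusted p was 0.0275 for Socs2 and 0.0162 for Socs3, and with si-NC replicate 3 left out it was 0.0409 for Socs3. Leaving out si-GPD1L replicate 2 gave 0.196 for Socs2, and leaving out si-GPD1L replicate 1 gave 0.269 for Socs3. Over 14 alternatives, 4 put Socs2 and 4 put Socs3 under 0.05, and the log2 fold change stayed negative in all of them, from -0.37 to -0.30 for Socs2 and from -0.38 to -0.24 for Socs3. For Socs1 all 14 alternatives gave an adjusted p under 0.05, at most 0.0131, and log2 fold changes from 1.69 to 2.07.

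**Figure D2:**
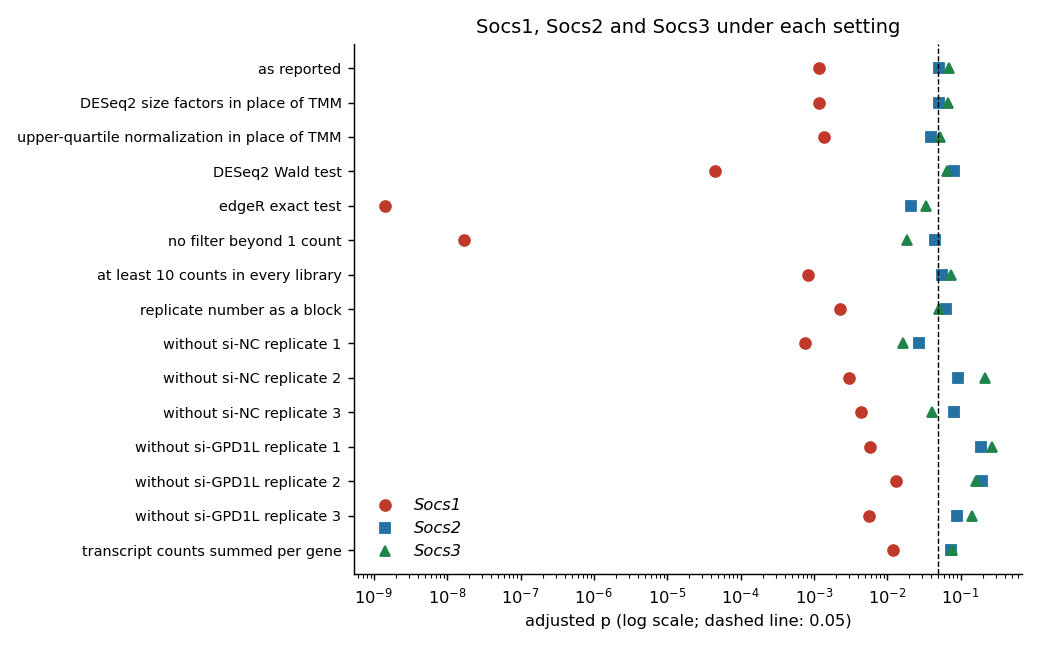
Adjusted p (x axis, log scale) of Socs1 (circles), Socs2 (squares) and Socs3 (triangles) as reported and under 14 alternative settings (y axis); the dashed line marks 0.05. Socs1 stays left of the line in every setting, and Socs2 and Socs3 scatter around it between 0.0162 and 0.269.

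The transcript counts allow a closer look at Socs2 and Socs3, each of which has a short and a long transcript model. Reads on the 922-base model of Socs2 were 41.8%, 45.04% and 44.1% of those on the 2280-base model in si-NC, and 43.5%, 48.5% and 42.4% in si-GPD1L. For Socs3, reads on the 863-base model were 27.2%, 22.2% and 31.3% of those on the 2546-base model in si-NC and 27.98%, 26.5% and 26.1% in si-GPD1L. The groups overlapped for both genes. The 2 models of a gene share reads, so these shares are not isoform levels. No other gene of the table overlapped the span of any of the 8 members.

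Socs5 (NCBI gene 500616, chromosome 6, 10671311 to 10705610, plus strand) was by far the most read member, with raw counts of 5950, 5568 and 6183 in si-NC and 5101, 6230 and 5765 in si-GPD1L. After normalization the si-NC libraries held 5882, 5891 and 6034 and the si-GPD1L libraries 5561, 5662 and 5754. These ranges did not overlap, but the log2 fold change was only -0.069 (SE 0.067, 95% confidence interval -0.21 to 0.076, adjusted p = 0.590 by the edgeR test). On the TPM scale the Socs5 means were 111 ± 6.52 and 112 ± 2.43 (SD over 3 libraries), the groups overlapped and the small difference had the opposite sign. The median of all genes tested was 0.078 higher in si-GPD1L on the log2 TPM scale.

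In all, the groups did not overlap for 4 of the 8 members (Socs1, Socs2, Socs3 and Socs5), where 29.0% of all genes tested did not overlap. Downward separation was seen for 3 members, against 13.9% of all genes. On the TPM scale, Socs1, Socs2 and Socs3 remained separated in the same directions.

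The other 4 members differed little. Socs4 (chromosome 15, 24056383 to 24070868) had normalized counts of 257 ± 28.1 in si-NC and 257 ± 31.4 under si-GPD1L (SD over 3 libraries), and a log2 fold change of 0.0012 with an interval of -0.27 to 0.27. Socs7 (chromosome 10, 85301797 to 85337971) had 347 ± 14.4 and 348 ± 5.86, a log2 fold change of 0.0041 with an interval of -0.19 to 0.20. For both genes the sign changed between alternatives, from -0.092 to 0.095 for Socs4 and from -0.025 to 0.035 for Socs7. Socs6 (chromosome 18, 85962729 to 85981125) had 490 ± 32.0 and 515 ± 15.2, a log2 fold change of 0.071 with an interval of -0.12 to 0.26. Cish (chromosome 8, 116054547 to 116059494), a classical STAT5 target, had 143, 179 and 174 in si-NC and 176, 181 and 171 in si-GPD1L. Its log2 fold change was 0.089 with an interval of -0.19 to 0.37 and was -0.0045 once si-NC replicate 1, the lowest library, was left out. The edgeR adjusted p-values of these 4 members ran from 0.684 to 0.996, and the intervals leave room for changes of up to 28.8% upward (Cish) and 16.8% downward (Socs4).

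**Figure D3:**
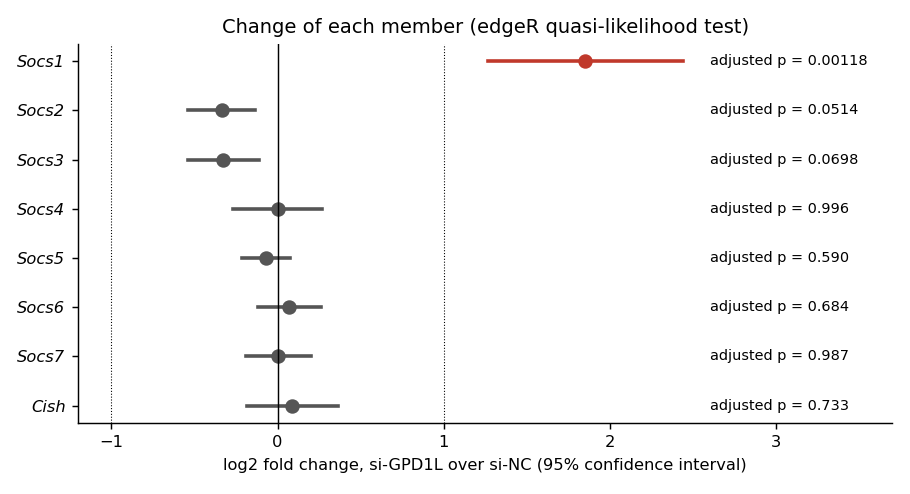
Log2 fold change of each member (x axis, si-GPD1L over si-NC; points) with its 95% confidence interval (lines) and adjusted p; dotted lines mark log2 fold changes of -1 and 1. Only the interval of Socs1 (red), 1.27 to 2.44, lies beyond 1, and the intervals of Socs2 and Socs3 lie below 0.

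Compared per length in TPM, the 8 genes spanned a wide range. In si-NC the order was Socs5 (111 ± 6.52, SD, n = 3), Socs3 (33.3 ± 4.07), Socs2 (21.8 ± 1.63), Socs6 (17.4 ± 1.36), Socs4 (16.3 ± 2.33), Cish (11.4 ± 1.81), Socs7 (6.37 ± 0.45) and Socs1 (1.70 ± 0.51). Only Socs6 and Socs4 overlapped among neighbours in this order. In si-GPD1L, Socs1 had reached 6.47 ± 0.61 TPM and overlapped Socs7 at 6.77 ± 0.11, and Socs2 at 18.3 ± 0.94 stood below Socs6 at 19.4 ± 0.57 with overlapping ranges. Socs5 lay above 90.6% of the genes tested by its mean TPM over the 6 libraries, Socs3 above 67.3% and Socs1 above 26.8%.

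The summed TPM of the family was alike in the groups, at 219 ± 15.0 TPM in si-NC and 221 ± 8.17 TPM under si-GPD1L (SD over 3 libraries). Socs5 made up 50.7% ± 0.66 and 50.8% ± 0.81 of it. The share of Socs1 was 0.77% ± 0.20 in si-NC and 2.93% ± 0.28 in si-GPD1L. Over the same libraries the share of Socs2 was 9.92% ± 0.35 and 8.25% ± 0.17, and that of Socs3 was 15.2% ± 1.57 and 12.7% ± 0.74. The share of Socs6 was 7.94% ± 0.53 and 8.76% ± 0.30, and that of Socs7 was 2.91% ± 0.11 and 3.06% ± 0.096. The ranges of the groups did not overlap for the shares of Socs1, Socs2, Socs3, Socs6 and Socs7, and they overlapped for Socs4, Socs5 and Cish, whereas the summed TPM differed by less than its spread within a group. The shares of a library sum to 100%, so they are not independent, and such shares have no background over all genes. The Socs7 ranges nearly touched, at 2.97% and 2.98%. By normalized counts the groups overlapped for Socs6 and Socs7 (log2 fold changes 0.071 and 0.0041).

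**Figure D4:**
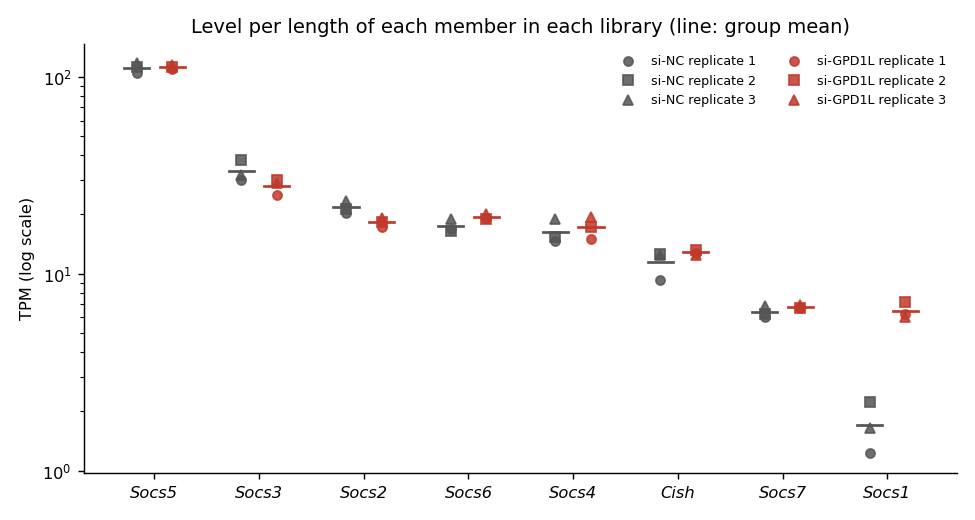
TPM (y axis, log scale) of each member, ordered by its si-NC mean, in the si-NC (grey) and si-GPD1L (red) libraries; lines are group means and marker shapes replicate numbers. Socs5 sits near 111 TPM in both groups, and Socs1 moves from 1.70 to 6.47 TPM, to the level of Socs7.

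The genes whose profile over the 6 libraries was most like that of Socs1 were found by the Euclidean distance of row-centred log2 CPM (library-scaled counts) among 10947 named genes whose normalized counts averaged 50 or more. They were Tmem106a (distance 0.24), Pml (0.34), which encodes the scaffold of nuclear PML bodies, and Adar (0.34), an RNA-editing enzyme with an interferon-induced isoform. Tmem106a rose from 89.3 ± 15.6 to 278 ± 36.9 normalized counts, Pml from 895 ± 88.6 to 2930 ± 269, and Adar from 996 ± 163 to 3148 ± 172 (SD over 3 libraries). Their log2 fold changes were 1.64, 1.71 and 1.66, with edgeR adjusted p-values of 1.89e-05, 5.45e-08 and 3.61e-07. These genes were picked for a profile like that of Socs1 over the same libraries. A similar rise with a small p was thus set by the choice and is no separate result.

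The wider pathway was described by 9 lists of genes that act above, beside or below the SOCS proteins, with 117 genes tested in all. Of these, 11 rose and 4 fell, which is 12.8% next to the background of 6.36%, and their median log2 fold change was 0.027. The lists were chosen with earlier results of these data known, and they hold interferon-induced genes such as Isg15 and Usp18. The 12.8% is therefore not an independent comparison with the background. With si-NC replicate 1 left out 23 were called, and with si-GPD1L replicate 1 or 2 left out 9 were. All p-values for these lists are adjusted values of the edgeR quasi-likelihood test.

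Among the ligands, 10 of 27 were read deeply enough to be tested and 1 was called. Tslp, an epithelial-type cytokine that acts through STAT5, fell from 118 ± 18.4 to 68.2 ± 13.7 normalized counts (log2 fold change -0.78, SE 0.19, edgeR adjusted p = 0.0324). Leaving out si-NC replicate 3 ended this call (adjusted p = 0.0556), as did leaving out si-GPD1L replicates 1, 2 or 3 (0.143, 0.0868 and 0.0638) or using transcript counts summed per gene (0.0886). The interferon genes Ifnb1, Ifna1 and Ifng, named after their values were seen, had 0 counts in all 6 libraries, where a count of 0 allows up to 3. Lif and Il6, gp130 ligands named in the same way, had 258 ± 17.5 against 345 ± 62.9 and 19.4 ± 8.28 against 28.9 ± 6.39 normalized counts (edgeR adjusted p = 0.0780 and 0.368). Of 14 alternatives, 4 put Lif and 0 put Il6 under an adjusted p of 0.05. Among those 4, the edgeR adjusted p of Lif was 0.0235 with si-NC replicate 1 left out and 0.0477 with the replicate number as a block.

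Of 32 receptors, 23 were tested, and Il4r, Ifngr1 and Ghr were the called ones described here. Il4r, the interleukin-4 receptor chain, rose by 0.56 on the log2 scale, from 1361 ± 112 to 2001 ± 201 normalized counts (SE 0.089, edgeR adjusted p = 0.0024). Ifngr1, the ligand-binding chain of the interferon-gamma receptor, rose by 0.32 (SE 0.065, adjusted p = 0.0113). Ghr, the growth hormone receptor that SOCS2 and CISH restrain, fell from 1067 ± 61.8 to 817 ± 82.6 (log2 fold change -0.38, SE 0.087, adjusted p = 0.0219). The calls of Ifngr1 and Ghr were lost with si-GPD1L replicate 1 left out (adjusted p = 0.0745 and 0.136) and with si-GPD1L replicate 2 left out (0.0987 and 0.113).

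None of the 4 Janus kinases was called by edgeR's quasi-likelihood test, by its exact test or by DESeq2, and 0 had an unadjusted p under 0.05. Their normalized counts were 6447 ± 371 and 6166 ± 314 for Jak1, 1655 ± 79.7 and 1594 ± 187 for Jak2, 407 ± 57.3 and 425 ± 17.6 for Jak3, and 576 ± 55.5 and 639 ± 6.74 for Tyk2 (SD over 3 libraries, si-NC then si-GPD1L). Their edgeR adjusted p-values ran from 0.349 to 0.782. Of the STAT factors, Stat2, which carries interferon signals, rose. Stat2 had 974, 979.8 and 936 in si-NC and 4034, 4748 and 4351 in si-GPD1L (log2 fold change 2.18, SE 0.079, adjusted p = 8.77e-10). Every si-GPD1L library lay far above every si-NC library for this gene. Stat3, Stat5a, Stat5b and Stat6 had log2 fold changes of -0.030, 0.10, 0.17 and 0.052 and adjusted p-values of 0.871, 0.717, 0.281 and 0.729. Stat4 had at most 2 counts in any library.

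**Figure D5:**
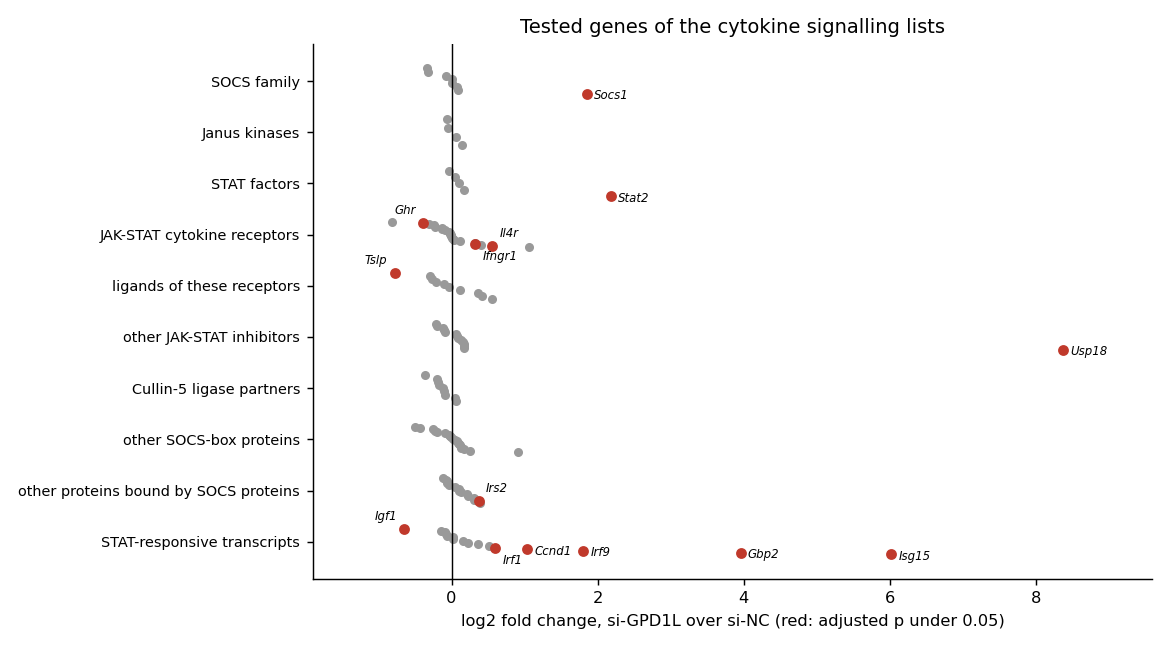
Log2 fold change (x axis, si-GPD1L over si-NC) of tested genes of the SOCS family and the 9 pathway lists (rows); red points with names had an adjusted p under 0.05. Socs1 (1.85) lies below Stat2 (2.18), most grey points lie near 0, and Usp18 (8.37) is the farthest point.

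Among 14 other inhibitors of JAK-STAT signaling, all tested, 1 rose. Usp18, which removes ISG15 and holds back the interferon receptor, had 1, 2 and 7 raw counts in si-NC and 980, 1459 and 1068 in si-GPD1L (log2 fold change 8.37, SE 0.24, edgeR adjusted p = 1.73e-10). Its si-NC mean was only 3.31 normalized counts, so it passed the count filter only through si-GPD1L. The size of its fold rests on that low level and ran from 7.94 to 9.44 on the log2 scale over 13 alternatives. The phosphatases and the PIAS proteins of this list were among the 13 not called. A list of 9 ubiquitin ligase genes around the SOCS box held Cullin-5 partners, and also Cul2 and Rbx1 of the Cullin-2 ligase. All 9 were tested, and none was called by either edgeR test or by DESeq2. An unadjusted p under 0.05 was reached by 2 of them, Tceb1 and Rbx1. The smallest p was that of Tceb1, which encodes elongin C (log2 fold change -0.37, SE 0.15, adjusted p = 0.166, and 0.0051 with no filter on low counts). Of 27 other SOCS-box proteins, 20 were tested, none was called by these 3 tests and 5 had an unadjusted p under 0.05, the smallest p being that of Wsb1 (log2 fold change -0.20, SE 0.072, adjusted p = 0.126). Of 15 tested receptors and docking proteins bound by SOCS proteins outside JAK-STAT, Irs2 rose (log2 fold change 0.38, SE 0.099, adjusted p = 0.0445). Blocking on the replicate number gave Irs2 an adjusted p of 0.0549, and it was 0.0556 with si-NC replicate 2 left out and 0.204, 0.139 and 0.112 with si-GPD1L replicates 1, 2 and 3 left out in turn. Upper-quartile normalization (0.0520) and transcript counts summed per gene (0.0867) also ended the call, which leaves it in 7 of 14 alternatives.

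Of 16 tested transcripts known to respond to STAT factors, 5 rose and 1 fell. Gbp2, an interferon-induced GTPase, rose by 3.96 on the log2 scale (SE 0.12, edgeR adjusted p = 2.62e-10). Isg15, a ubiquitin-like modifier, rose by 6.02 (SE 0.19, adjusted p = 2.82e-10) from a low si-NC mean of 16.6 normalized counts. Over 14 alternatives the log2 fold change of Isg15 ran from 5.87 to 6.38. Irf9, the partner of STAT2, rose by 1.81 (SE 0.077, adjusted p = 5.17e-09). The other 2 rises were Irf1 (log2 fold change 0.60, adjusted p = 0.0020) and Ccnd1 (1.04, adjusted p = 2.95e-06), and the fall was Igf1, a growth hormone target, from 14231 ± 1883 to 9105 ± 1547 normalized counts (log2 fold change -0.64, SE 0.12, adjusted p = 0.0084, with 0.0703 and 0.0786 when si-GPD1L replicates 1 and 2 were left out). Irf1, Ccnd1 and Igf1 were named after their values were seen. Beside Igf1 and Ghr, the growth hormone feedback genes Socs2 and Cish had log2 fold changes of -0.34 and 0.089, neither of them past the threshold. The growth hormone gene Gh1 had 0 counts in every library. A link between these genes was not tested.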

How the data were processed

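RNA-seq was performed by the authors on 6 libraries, and the deposited counts per gene and per transcript are whole numbers without normalization. The submitters' processing notes name HISAT2 2.1.0, HTSeq 0.12.4 and rn6 without their roles, and a strand setting is not given in the sources used here. The TPM values deposited by the authors are these counts divided by the listed length (a score column of bases in the files, deposited by the authors) and scaled to the same total in each library. The authors' own fold changes, p-values, GO and KEGG tables were not used.

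Genes were kept by filterByExpr (14852), normalized by TMM and compared by edgeR 4.0.16 (R 4.3.3; glmQLFit and glmQLFTest) with Benjamini-Hochberg adjustment over all genes tested and a threshold of 0.05. The SE is the log2 fold change divided by the square root of F. The lowest and highest library totals were 16892255 and 20149732, and the upper limit of 3 for a count of 0 covers counting error only. All 8 members passed the filter. The test was first checked on simulated counts.

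Named were all members, Gpd1l, every JAK and STAT, and, in each list, up to 3 called genes with the smallest adjusted p and a mean of at least 50 normalized counts, or the tested gene with the smallest p where none was called; and, for a called member, the 3 most alike named genes. The members and lists were chosen with earlier results of these data known. Alternatives for Lif, Il6, Irf1, Ccnd1, Igf1 and the genes most like Socs1 were added after seeing the data. Of the listed symbols, Il7r and Thpo were not analysed here, and some listed genes that the rule would name are not reported here. Alternatives were DESeq2 1.42.0 (size factors and Wald test), upper-quartile normalization, edgeR's exact test, other filters, a block on replicate number, leaving out single libraries, and transcript counts summed per gene.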

Additional observations from a re-analysis of the deposited data

How the results depend on the processing

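The number of SOCS members called was 1 as reported, 2 with upper-quartile normalization, 3 with edgeR's exact test, 3 with no filter beyond 1 count and 1 to 3 when single libraries were left out. Over all genes, 945 were called as reported, 1528 with the exact test, 1929 with no filter, 623 with transcript counts and 361 to 1531 without single libraries. The pathway lists held 15 called genes as reported and 9 to 23 without single libraries. Of the members, Socs4 changed sign with upper-quartile normalization (-0.023 on the log2 scale), DESeq2's Wald test (-0.0031), no filter (-8.39e-05), transcript counts (-0.0020) and without single libraries (-0.092 to 0.095). Socs7 did so with upper-quartile normalization (-0.020), DESeq2's Wald test (-8.62e-05) and without single libraries (-0.025 to 0.035). Leaving out single libraries gave log2 values of -0.0045 to 0.15 for Cish, -0.12 to 0.037 for Jak2, -0.045 to 0.16 for Jak3, -0.10 to 0.028 for Stat3, -0.046 to 0.25 for Stat5a and -0.0064 to 0.10 for Stat6. The cause of these shifts was not tested. Replicate numbers are shared by the groups, but same-numbered libraries did not deviate together (correlations -0.012, -0.0059 and 0.043), so they were not taken as pairs. With the replicate number as a block, 921 genes and 1 SOCS member were called. Depth limits Socs1 most, with 12 to 19 counts in si-NC.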
